A study of Homo sapiens with 16 samples.

Results

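Receptor tyrosine kinases and their ligands were followed as 10 genes in 8 samples of the human lung adenocarcinoma line A549. The 8 receptors were EGFR, ERBB2, ERBB3, MET, FGFR4, AXL, IGF1R and EPHA2, and the 2 ligands were EREG and AREG. They were taken by gene symbol from 3 deposited tables that together held 12587 symbols. EGFR and MET lie on chromosome 7, EREG and AREG on chromosome 4, EPHA2 on 1, FGFR4 on 5, ERBB3 on 12, IGF1R on 15, ERBB2 on 17 and AXL on 19. Of the 10 genes, 9 had a row in all 8 samples, and ERBB3 had one in 2 samples.

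Each sample had a ribosome footprint library and an input RNA library, so the series held 16 libraries. METTL16 and EIF4E2 were the depleted genes. METTL16 is an RNA methyltransferase that writes N6-methyladenosine, and EIF4E2 encodes a cap-binding protein known as a repressor of translation initiation. The samples labelled sgM16-1 and sgM16-2, called sgM16 clones 1 and 2 below, were 2 clones made with 1 guide RNA against METTL16, set against 1 sample labelled as untreated. The series text calls the control of the guide sgNS, so the label and the text differ on what it received. The sample labelled shM16-2, called shM16 below, carried 1 hairpin against METTL16 and was set against shscramble rep1. The samples labelled sheIF4E2 rep1 and rep2 carried 1 hairpin against EIF4E2, described as biological replicates, and were set against shscramble rep2. All samples, controls included, had 2 h in fresh medium and then 5 min in 100 µg/mL cycloheximide, a drug that stops elongating ribosomes. Serum (FBS) was given as 10% for every library.

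Receptor tyrosine kinases span the cell membrane. Binding of a ligand brings receptors together and starts their kinase domains, and the phosphorylated tails recruit adaptors that feed the RAS-MAPK and PI3K-AKT cascades. EREG (epiregulin) and AREG (amphiregulin) are made as membrane-bound precursors, are released by metalloproteases and bind EGFR. EGFR, ERBB2 and MET are known drivers of lung adenocarcinoma.

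The values were TPM, which are reads scaled for gene length and library total. Levels below are on that scale. Whole reads could be read back from the TPM steps, which gave 462611 to 699461 reads in listed genes per input library and 196995 to 876336 per footprint library. Between 9943 and 10750 genes were listed per sample. METTL16 stood at 6.80 and 6.94 TPM of input RNA in the sgM16 clones, against 12.8 TPM in the untreated sample (log2 change −0.81, SE 0.45, limma adjusted p = 0.551), and at 3.50 TPM in shM16, against 11.1 TPM in shscramble rep1. EIF4E2 stood at 7.69 and 3.57 TPM in the sheIF4E2 samples, against 21.4 TPM in shscramble rep2 (log2 change −1.83, SE 0.60, limma adjusted p = 0.590). Of the 6 epithelial markers, 4 to 6 were listed per sample, and all 4 antioxidant genes typical of this line were listed in each sample. None of the 4 alveolar type 2 markers was listed in any sample. Of the 6 markers of leukocytes, endothelium and fibroblasts, only the collagen gene COL1A1 was listed, at 1.95 to 32.0 TPM in 7 samples.

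AXL, the receptor for GAS6, and EPHA2, a receptor for ephrin-A ligands, were the most abundant receptors in most samples. AXL input RNA ranged from 125 to 615 TPM over the 8 samples with a median of 377 TPM. This placed it between percentiles 96.4 and 99.3 of the genes listed in a sample. EPHA2 ranged from 102 to 167 TPM, the narrowest range of the 9 genes at 1.64-fold. AXL came first of the 9 genes in 6 samples, EPHA2 came first in shM16 and EREG in shscramble rep1.

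EGFR, MET (the receptor for HGF) and IGF1R, which binds insulin-like growth factors, shared the middle of the range. EGFR ran from 41.2 to 87.7 TPM with a median of 64.0 TPM, MET from 33.7 to 132 TPM with a median of 64.8 TPM, and IGF1R from 49.1 to 93.4 TPM with a median of 66.9 TPM. The order of these 3 receptors changed from sample to sample, so none stood above the others. FGFR4, a receptor for FGF19 and other fibroblast growth factors, had the widest range relative to its lowest value, 9.92 to 85.7 TPM or 8.64-fold. ERBB2, which has no known ligand of its own and pairs with the other ERBB receptors, lay between 12.5 and 30.7 TPM and was the lowest of the 9 genes in 6 of 8 samples, with FGFR4 below it in both sgM16 clones.

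ERBB3, a neuregulin receptor with a weak kinase, was at the edge of detection. It had 1.13 TPM in shM16, from 8 reads, and 1.00 TPM in sheIF4E2 rep2, from 5 reads. Its footprints came to 2 reads in shM16 and 3 reads in sheIF4E2 rep2. No input value under 1 TPM was listed in any table, so a level below that floor is not seen, and ERBB3 entered no test.

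The ligand EREG ranged from 49.6 to 175 TPM of input RNA with a median of 86.9 TPM, and AREG ranged from 25.7 to 167 TPM with a median of 54.0 TPM. Both peaked in shscramble rep1. Among ligands of the receptors described here, EGF, HGF, IGF1, IGF2 and FGF19 were listed in no sample. NRG1, a ligand of ERBB3, was listed in all 8 samples at a median of 36.4 TPM, EFNA1, a ligand of EPHA2, at 28.2 TPM, HBEGF at 8.17 TPM and TGFA at 9.76 TPM, both ligands of EGFR. GAS6 was listed in 6 samples at a median of 3.89 TPM. KLB, the co-receptor that FGFR4 uses for FGF19, was listed in 1 sample at 1.08 TPM.

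**Figure D1:**
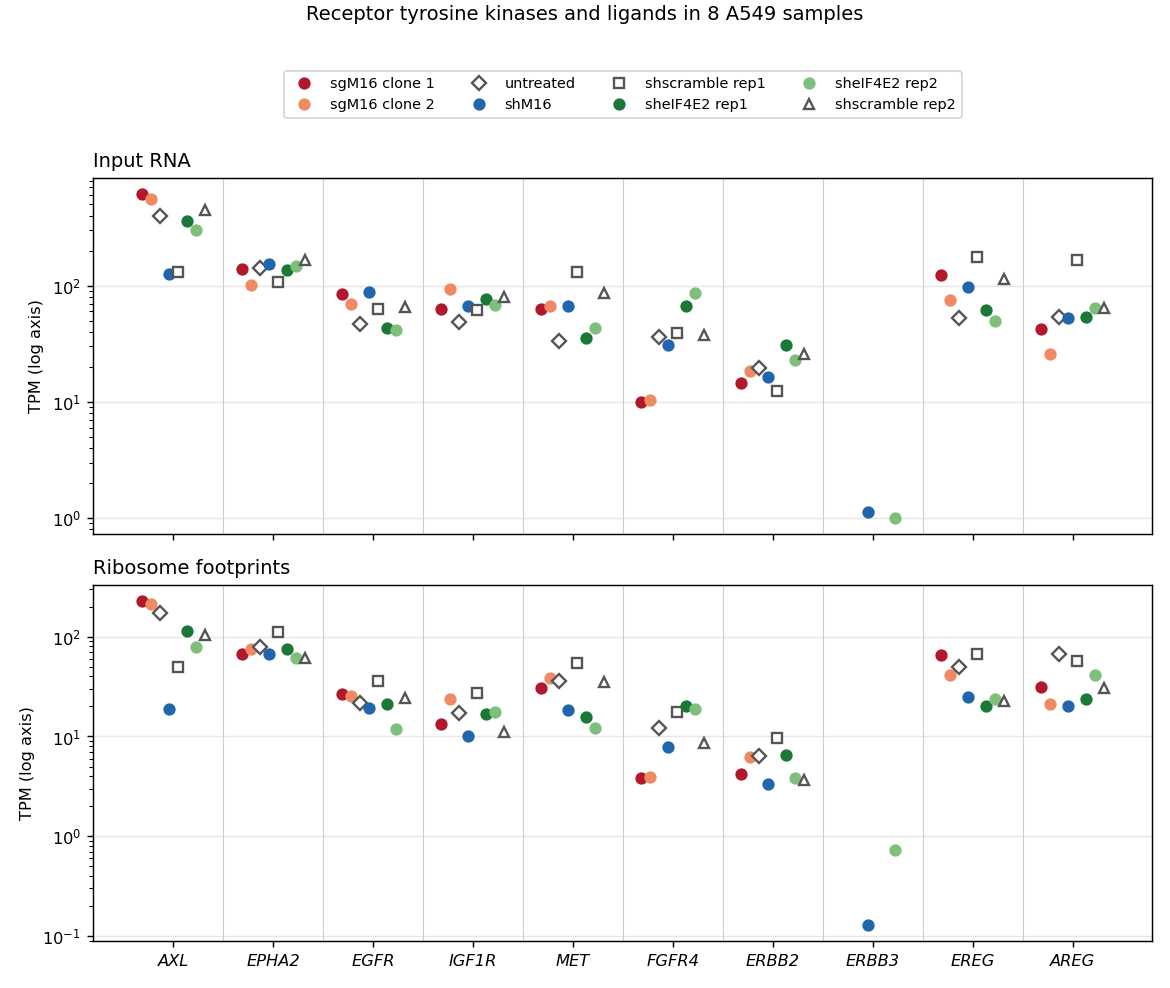
TPM of the 10 genes on log axes in input RNA (top) and ribosome footprints (bottom), with 1 point per sample, filled circles for depleted cells and open symbols for controls. FGFR4 is lowest in the sgM16 clones and highest in the sheIF4E2 samples, AXL input is lowest in shM16 and shscramble rep1, and ERBB3 has values in 2 samples.

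The 3 controls differed from each other for most of these genes, which bears on every comparison below, since each table had 1 control. In input RNA, MET stood at 33.7 TPM in the untreated sample, 132 TPM in shscramble rep1 and 87.3 TPM in shscramble rep2, a 3.92-fold span. AXL spanned 3.39-fold, from shscramble rep1 to shscramble rep2, EREG 3.32-fold and AREG 3.10-fold. FGFR4 spanned 1.07-fold, between 36.3 and 38.9 TPM. In all, 5 of 9 genes spanned at least 2-fold in TPM between controls in input and 6 of 9 in footprints. The share over all genes was taken by a stricter measure, a range of at least 1 in log2(TPM + 1). It was 43.4% of 5170 genes in input and 62.6% of 3563 genes in footprints, at a mean of at least 10 TPM. By that measure ERBB2 input (0.99) and FGFR4 footprints (0.96) fell short, so nothing particular to the members is read from the counts. Tables were listed separately, so these spans hold any difference between tables as well. In bulk RNA, fewer expressing cells and less RNA per cell cannot be told apart.

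The results below turn on the receptors FGFR4 and MET and on both ligands, so the 250 bases upstream of their first annotated start in RefSeq (GRCh38.p14, all on the + strand) are shown 5′ to 3′. Capitals mark TATAAA (the TATA box), GGGCGG or its reverse complement (the GC box), TGACGTCA (the cyclic AMP response element) and CCAAT, searched on both strands, none of which overlap here. The windows are chr5:177086665-177086914 for FGFR4, chr7:116671946-116672195 for MET, chr4:74364895-74365144 for EREG and chr4:74444886-74445135 for AREG.
FGFR4: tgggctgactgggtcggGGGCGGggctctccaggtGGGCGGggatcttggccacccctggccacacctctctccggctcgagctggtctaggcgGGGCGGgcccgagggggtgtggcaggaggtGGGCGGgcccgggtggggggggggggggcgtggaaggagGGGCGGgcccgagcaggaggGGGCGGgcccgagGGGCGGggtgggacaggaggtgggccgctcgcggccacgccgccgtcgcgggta
MET: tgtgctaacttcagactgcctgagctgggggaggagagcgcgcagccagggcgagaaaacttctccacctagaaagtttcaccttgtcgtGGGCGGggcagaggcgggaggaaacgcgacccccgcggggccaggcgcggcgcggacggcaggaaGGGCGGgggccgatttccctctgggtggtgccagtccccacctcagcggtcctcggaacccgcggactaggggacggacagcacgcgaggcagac
EREG: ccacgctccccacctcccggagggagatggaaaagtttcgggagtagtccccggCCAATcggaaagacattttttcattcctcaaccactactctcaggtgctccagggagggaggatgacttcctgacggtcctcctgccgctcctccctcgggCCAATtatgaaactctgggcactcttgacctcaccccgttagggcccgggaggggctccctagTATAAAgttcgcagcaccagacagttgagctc
AREG: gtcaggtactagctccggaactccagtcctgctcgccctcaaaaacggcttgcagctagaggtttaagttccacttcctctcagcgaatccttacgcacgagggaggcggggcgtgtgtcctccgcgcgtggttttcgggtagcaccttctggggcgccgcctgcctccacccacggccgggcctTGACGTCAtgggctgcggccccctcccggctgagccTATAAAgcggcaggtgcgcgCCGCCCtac

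TATAAA was found upstream of both ligand genes, with its first base 32 bases before the start of EREG and 29 bases before that of AREG, and upstream of none of the 7 receptors matched in the table (all but ERBB3). It is present in 11.2% of 27305 promoter windows of the same length. GGGCGG was found in 7 of the 9 windows, beside 42.2% of all windows, and FGFR4 held 7 copies. TGACGTCA, in 1.75% of all windows, was found in AREG and EPHA2. CCAAT, in 33.0% of all windows, was found in EREG and ERBB2. GC content was 79.6% for FGFR4, 68.4% for MET, 58% for EREG and 65.2% for AREG, beside a median of 57.6% over all windows. A match describes the letters only.

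The sgM16 clones address how these genes differ in cells made with a guide against METTL16. METTL16 footprints stood at 4.96 and 2.69 TPM in clones 1 and 2, against 8.04 TPM in the untreated sample. FGFR4 RNA was lower than in the untreated sample in both clones, and FGFR4 footprints were lower to a similar degree. AREG footprints were also lower in both clones. MET, EGFR and AXL RNA was higher in both clones than in the untreated sample. With 2 clones and 1 control, none of these differences passed the test across all genes.

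FGFR4 input RNA stood at 9.92 and 10.3 TPM in sgM16 clones 1 and 2, against 36.3 TPM in the untreated sample. The read ratio over both clones was 0.278, with an exact 95% interval of 0.185 to 0.414 for counting error only. The log2 change was −1.75 (SE 0.37), with an adjusted p of 0.223 by limma. FGFR4 footprints stood at 3.82 and 3.89 TPM in the clones, against 12.1 TPM in the untreated sample, from 17, 7 and 26 reads. Both clones lay below all 3 controls of the series in both assays, and the share of all genes that did so was not taken. The footprint change was −1.44 (SE 0.37, limma adjusted p = 0.579).

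AREG footprints stood at 31.6 and 21.2 TPM in sgM16 clones 1 and 2, against 67.0 TPM in the untreated sample, from 48, 13 and 49 reads. Both clones lay below the control, with a log2 change of −1.34 (SE 0.38, limma adjusted p = 0.579). The untreated value was the highest AREG footprint value of the series, and clone 1 lay above the 30.7 TPM of shscramble rep2. AREG input RNA stood at 42.3 and 25.7 TPM in the clones, against 54.0 TPM in the untreated sample, a change of −0.69 (SE 0.38, limma adjusted p = 0.545).

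EREG, the other ligand, lay on the other side in input. It stood at 125 and 76.0 TPM in the clones, against 52.8 TPM in the untreated sample, a change of 0.87 (SE 0.39, limma adjusted p = 0.463). The untreated value was the lowest of the 3 controls, which spanned 52.8 to 175 TPM. EREG footprints stood at 66.0 and 41.2 TPM in the clones, which lie on either side of the 49.9 TPM of the untreated sample. MET input RNA stood at 63.4 and 66.3 TPM in the clones, against 33.7 TPM in the untreated sample, a change of 0.92 (SE 0.29, limma adjusted p = 0.351). MET footprints stood at 30.5 and 38.8 TPM in the clones, against 35.7 TPM in the untreated sample, so the untreated value lay between them. Translation efficiency (TE, the footprint level over the input level) of MET was 0.482 and 0.586 in the clones, against 1.06 in the untreated sample, a log2 change of −0.98 (SE 0.41, limma adjusted p = 0.573). Both scramble samples had a MET TE of 0.413 and 0.400, below the clones.

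Among the other receptors, EGFR stood at 84.8 and 69.4 TPM of input RNA in the clones, against 47.0 TPM in the untreated sample, a change of 0.70 (SE 0.29, limma adjusted p = 0.449). AXL stood at 615 and 560.4 TPM, against 395 TPM in the untreated sample, a change of 0.57 (SE 0.24, limma adjusted p = 0.452). IGF1R stood at 62.7 and 93.4 TPM, against 49.1 TPM in the untreated sample. EPHA2 and ERBB2 differed by less than 0.5 log2 units on average in each assay.

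Across the table, limma called none of the 9 genes in input, footprints or TE, beside 0.0118%, 0.0% and 0.0% of 8505 genes. At an unadjusted p under 0.05 it placed 4 of 9 in input (AXL, EGFR, FGFR4, MET), 2 in footprints (AREG, FGFR4) and 1 in TE (MET), beside 10.8%, 7.11% and 8.57% of all genes. Voom on the recovered reads called 0 of 9 in input, beside 0.047% of all genes, and 0 of 9 in footprints and in TE, beside 0.0% each. A difference of at least 1 log2 unit in both clones was found for FGFR4 in input, beside 0.847% of all genes, and for FGFR4 and AREG in footprints, beside 1.81% of all genes, all lower. None of the 9 was higher by that size in input, beside 4.22%, or in footprints, beside 1.28%. No gene of the 9 met that size in TE, beside 9.21% lower and 1.55% higher over all genes. In input 5 of 9 were higher in both clones, beside 43.3% of all genes, and 4 of 9 lower, beside 29.6%. In footprints 2 of 9 (EGFR, AXL) were higher in both clones, beside 18.4%, and 4 of 9 lower, beside 52.9%. TE was lower in both clones for 6 of 9, beside 55.1%, and higher for FGFR4 alone, beside 18.0%. The median change of all genes was 0.10 in input, −0.23 in footprints and −0.33 in TE, and the values above include it. The p-values rest on the spread between 2 clones with 2 residual degrees of freedom, and the lone control is taken to vary like the clones.

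The hairpin against METTL16 was a single sample, so its values carry no test. Input RNA of 4 genes was higher, beside 28.8% of all genes, and of 5 lower than in shscramble rep1, beside 71.2%. AREG had the largest input difference. It stood at 53.2 TPM in shM16, against 167 TPM in shscramble rep1, a read ratio of 0.318 with an exact 95% interval of 0.223 to 0.450 and a log2 difference of −1.64. The shscramble rep1 value was the highest AREG value of the series, and the other controls had 54.0 and 64.6 TPM. No other gene of the 9 was past 1 log2 unit in input, which makes 1 of 9, beside 11.9% of 8168 genes lower and 2.5% higher by that size.

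Footprint levels were at least 1 log2 unit lower in shM16 than in shscramble rep1 for 7 of 9 genes (ERBB2, MET, FGFR4, AXL, IGF1R, EREG, AREG), beside 54.4% of all genes. All 9 were lower, beside 95.2% of all genes lower and 4.84% higher, and the median of all genes was −1.06. The listed genes took 16.1% of all footprint TPM in shM16, against 27.6% in shscramble rep1, and the part of that in the footprint differences was not tested. MET footprints stood at 18.6 TPM in shM16, against 54.4 TPM in shscramble rep1, the largest difference of the 9 at −1.50. MET input RNA was lower as well, at 66.8 TPM in shM16 against 132 TPM in shscramble rep1, or −0.97. The TE difference of MET was −0.53. EPHA2 had the smallest, 67.1 TPM in shM16 against 111 TPM in shscramble rep1, or −0.71. With the mean of both scramble samples as control 3 of 9 genes (MET, AXL, AREG) were lower by that size. Under median-of-ratios or quantile scaling, 0 of 9 genes had a difference of 1 log2 unit.

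TE was at least 1 log2 unit lower in shM16 for 5 of 9 genes, beside 36.0% of all genes, and for 8 of 9 it was lower at all, beside 84.3%. The median TE difference of all genes was −0.76. The 5 were all receptors, namely ERBB2 (−1.67), IGF1R (−1.46), EGFR (−1.34), AXL (−1.29) and EPHA2 (−1.22). With the mean of both scramble samples as control EGFR alone was past that size, at −1.04, and the others stood at −0.57 for ERBB2, −0.66 for IGF1R, −0.94 for AXL and −0.48 for EPHA2. AREG was the one gene of the 9 with a higher TE, 0.384 in shM16 against 0.341 in shscramble rep1, and none was higher by 1 log2 unit, beside 2.01% of all genes. Under either other scaling 1 of 9 genes, AREG, was past 1 log2 unit, on the higher side. EGFR input RNA stood at 87.7 TPM in shM16, against 62.9 TPM in shscramble rep1, and EPHA2 at 154 TPM in shM16, against 108 TPM in shscramble rep1, with read ratios of 1.40 and 1.42.

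**Figure D2:**
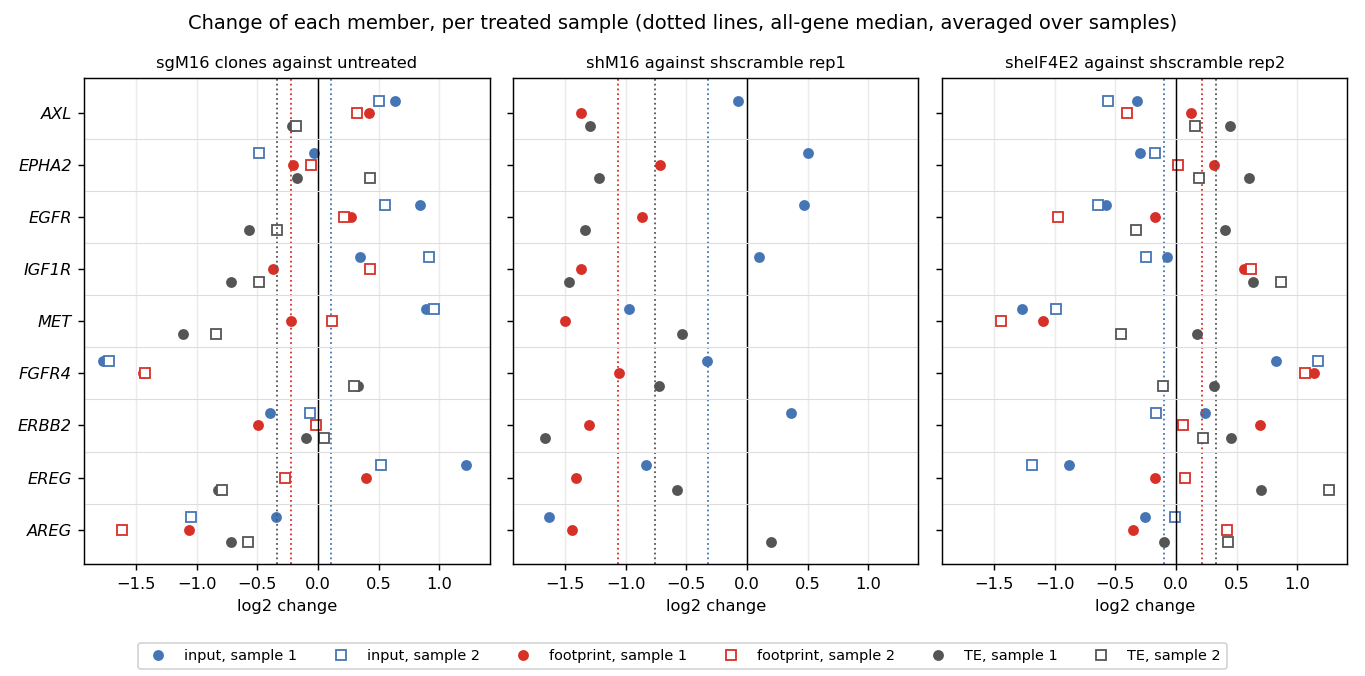
Difference in log2(TPM + 1) from the control of the same table for the 9 tested genes in input RNA, footprints and TE, with 1 point per depleted sample; dotted lines give the median of all genes. FGFR4 lies at −1.77 and −1.72 in the input of the sgM16 clones and at 0.83 and 1.17 in the sheIF4E2 samples, and all 9 footprint points of shM16 lie below 0.

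The sheIF4E2 samples address how these genes differ with a hairpin against the cap-binding repressor. MET RNA and footprints were both lower than in shscramble rep2, FGFR4 RNA and footprints were both higher, and EREG RNA was lower with footprints near those of the control. EGFR and AXL RNA was lower in both replicates. None passed the limma test, while voom on the recovered reads called 5 of the 9 genes in input and 1 in footprints.

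MET input RNA stood at 35.6 and 43.5 TPM in sheIF4E2 rep1 and rep2, against 87.3 TPM in shscramble rep2, a log2 change of −1.13 (SE 0.30, limma adjusted p = 0.513). MET footprints stood at 15.8 and 12.2 TPM in the sheIF4E2 samples, against 34.9 TPM in shscramble rep2, a change of −1.27 (SE 0.30, limma adjusted p = 0.120). Both replicates lay below the control in both assays. The read ratio over both replicates was 0.453 in input and 0.395 in footprints, with exact 95% intervals of 0.376 to 0.547 and 0.279 to 0.557. Voom gave MET −1.05 in input (adjusted p = 4.42e-06) and −1.54 in footprints (adjusted p = 0.000405).

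FGFR4 input RNA stood at 67.4 and 85.7 TPM in sheIF4E2 rep1 and rep2, against 37.5 TPM in shscramble rep2, a log2 change of 1.00 (SE 0.29, limma adjusted p = 0.524; voom 1.11, adjusted p = 0.00129). Its footprints stood at 20.0 and 18.9 TPM in the sheIF4E2 samples, against 8.53 TPM in shscramble rep2, a change of 1.10 (SE 0.29, limma adjusted p = 0.142), from 27, 32 and 13 reads. These were the 2 highest FGFR4 values of the series in each assay. The read ratio over both replicates was 2.04 in input, with an exact 95% interval of 1.55 to 2.72, and 2.28 in footprints, with one of 1.23 to 4.53. With the mean of both scramble samples as control the footprint change was 0.62.

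EREG input RNA stood at 61.8 and 49.6 TPM in sheIF4E2 rep1 and rep2, against 114 TPM in shscramble rep2, a log2 change of −1.03 (SE 0.28, limma adjusted p = 0.517; voom −0.94, adjusted p = 2.91e-05). EREG footprints stood at 20.0 and 23.9 TPM in the sheIF4E2 samples, against 22.6 TPM in shscramble rep2, so the control lay between the replicates. The footprint read ratio was 0.979, with an exact 95% interval of 0.664 to 1.46. EREG TE was 0.324 and 0.482 in the sheIF4E2 samples, against 0.198 in shscramble rep2, a change of 0.98 (SE 0.40, limma adjusted p = 0.525), and the median TE change of all genes was 0.32. With the mean of both scramble samples as control the EREG TE change was 0.52. AREG input RNA stood at 54.1 and 64.2 TPM in the sheIF4E2 samples, against 64.6 TPM in shscramble rep2, with a read ratio of 0.917 and an exact 95% interval of 0.615 to 1.39.

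EGFR input RNA stood at 43.4 and 41.2 TPM in sheIF4E2 rep1 and rep2, against 65.1 TPM in shscramble rep2, a change of −0.61 (SE 0.38, limma adjusted p = 0.781; voom −0.52, adjusted p = 0.0257). EGFR footprints stood at 21.4 and 11.8 TPM in the sheIF4E2 samples, against 24.2 TPM in shscramble rep2 (log2 change −0.57, SE 0.38, limma adjusted p = 0.509). AXL input RNA stood at 359 and 303 TPM, against 448 TPM in shscramble rep2. IGF1R footprints stood at 16.9 and 17.6 TPM, against 11.1 TPM in shscramble rep2, a change of 0.59 (SE 0.27, limma adjusted p = 0.333), and its TE change was 0.75 (SE 0.38, limma adjusted p = 0.568). With the mean of both scramble samples as control those 2 IGF1R changes were −0.03 and −0.06. ERBB2 and EPHA2 differed by less than 0.5 log2 units on average in each assay.

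Across the table, limma called none of the 9 genes in input, footprints or TE, beside 0.0116%, 0.628% and 0.0% of 8597 genes. At an unadjusted p under 0.05 it placed 3 of 9 in input (EREG, FGFR4, MET), 2 in footprints (FGFR4, MET) and 1 in TE (EREG), beside 7.22%, 16.4% and 9.39% of all genes. Voom called EGFR, MET, FGFR4, AXL and EREG in input, beside 4.29% of all genes, MET in footprints, beside 0.698%, and none in TE, beside 0.0%. At least 1 log2 unit in both replicates was reached in footprints by FGFR4, higher, beside 7.94% of all genes, and by MET, lower, beside 1.56%. None of the 9 reached it in input, beside 2.38% higher and 2.61% lower over all genes, or in TE, beside 10.1% higher and 2.5% lower. In input 7 of 9 were lower in both replicates, beside 46.0% of all genes, and FGFR4 alone was higher, beside 30.1%. In footprints 4 of 9 were higher, beside 48.0%, and 2 lower, beside 22.6%. TE was higher in both replicates for 5 of 9, beside 52.8%, and lower for none, beside 19.4%. The median change of all genes was −0.10 in input, 0.20 in footprints and 0.32 in TE. The footprint libraries of this table were the shallowest, at 196995 to 241083 reads.

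**Figure D3:**
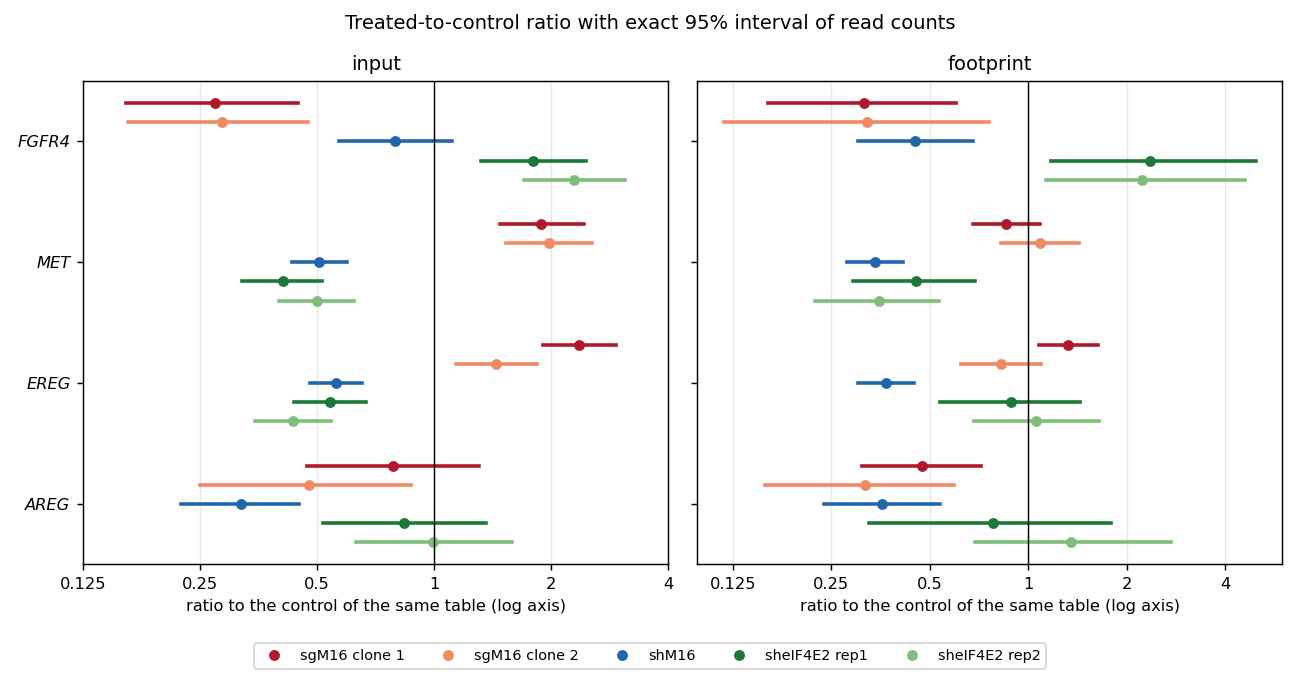
Ratio of normalised read counts to the control of the same table, on a log axis, for FGFR4, MET, EREG and AREG in each depleted sample, with exact 95% intervals for counting error only. The FGFR4 intervals lie below 1 in both sgM16 clones and above 1 in both sheIF4E2 samples in each assay, and the EREG footprint intervals of the sheIF4E2 samples include 1.

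Ordered by input level over the whole series, FGFR4 ran from the sgM16 clones (9.92 and 10.3 TPM) through shM16 (30.8 TPM) and the 3 controls (36.3 to 38.9 TPM) to sheIF4E2 rep1 and rep2 (67.4 and 85.7 TPM). Neither the clones nor the sheIF4E2 samples overlapped the controls. The share of all genes that separate from the controls in this way was not taken, so nothing particular to FGFR4 is read from it. The shM16 value had a read ratio to shscramble rep1 of 0.793 with an exact 95% interval of 0.569 to 1.11, so it did not differ from its control beyond counting error. MET differed in this respect. All 5 depleted samples, at 35.6 to 66.8 TPM of input RNA, lay within the 33.7 to 132 TPM spanned by the controls. In MET footprints 4 of the 5 lay below all 3 controls, which spanned 34.9 to 54.4 TPM. The share of all genes with such a count was not taken, so nothing particular to MET is read from it. In shM16, 95.2% of all genes had lower footprints than in its control. For sgM16 clone 1 the MET footprint ratio to its own control was 0.854, with an exact 95% interval of 0.677 to 1.08. The intervals of shM16 and of both sheIF4E2 samples lay below 1.

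Set against the genes of the same sample with at least 1 footprint read, 3 receptors had few footprints for their RNA. The IGF1R footprint-to-input ratio lay between percentiles 8.99 and 38.6 of those genes, and that of AXL between 20.6 and 31.4. That of FGFR4 lay between 17.0 and 43.3. So IGF1R, AXL and FGFR4 were all below the middle of this ranking in each of the 8 samples. AXL had the narrowest span of the 9 although its TE itself ran from 0.149 in shM16 to 0.433 in the untreated sample. ERBB2 ran from 11.3 to 32.5 in 7 samples and stood at 66.4 in shscramble rep1, where it rested on 44 input and 64 footprint reads. AREG was above the middle of this ranking in 6 samples, and EPHA2 ran from 32.7 to 79.2. These ranks use 9335 to 9984 genes per sample and are a description. Between 317 and 1293 listed genes per sample had no footprint read and were left out. Counting them would raise the percentiles, by unequal amounts between samples, so a gene near the middle could change sides.

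**Figure D4:**
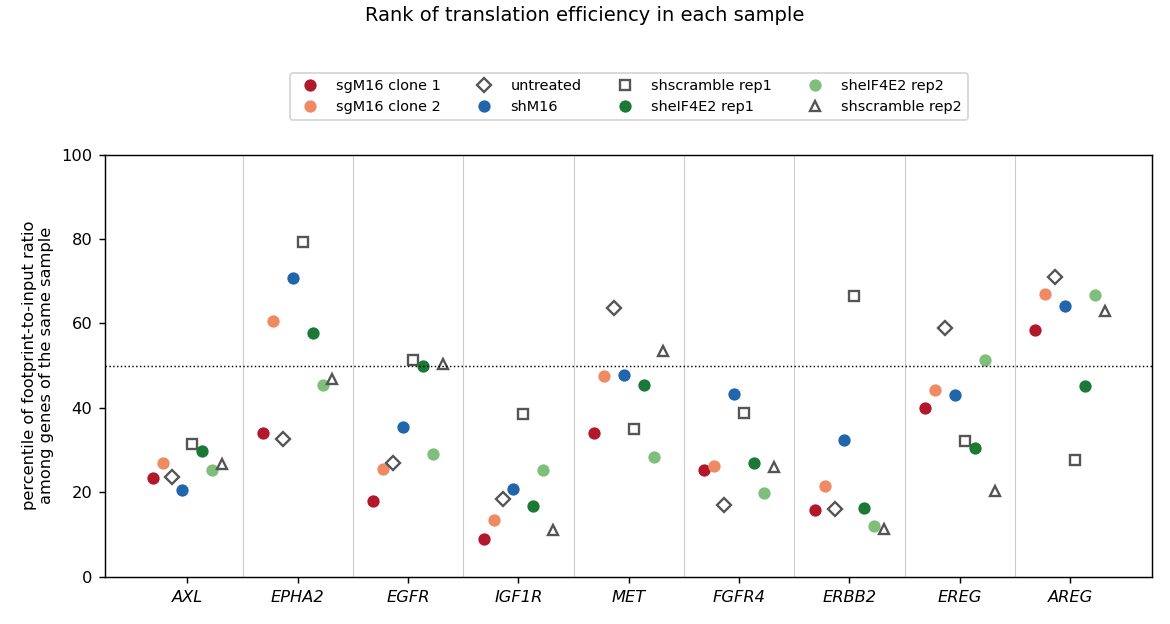
Percentile of the footprint-to-input ratio among the genes of the same sample with at least 1 footprint read, for 9 genes and 8 samples. Filled circles are depleted cells, open symbols controls, and the dotted line is the middle of the ranking. AXL, IGF1R and FGFR4 lie below the line in all 8 samples, and AREG lies above it in 6.

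Other genes of the pathway were read from 5 lists, and limma called none of their members in either table with replicates. The background over all genes was 0.0118% in input and 0.0% in footprints and TE for sgM16, and 0.0116%, 0.628% and 0.0% in the same order for sheIF4E2. Voom called none of their members in the sgM16 table or in sheIF4E2 footprints and TE. In sheIF4E2 input it called 2 of 9 other receptors, 4 of 16 ligands, 3 of 10 shedding enzymes and co-receptors, 1 of 24 adaptors and effectors and 2 of 15 negative regulators, beside 4.29% of all genes. Among other receptor tyrosine kinases, 7 of 26 were measured in the sgM16 table. ROR1, an orphan receptor that binds a Wnt ligand, stood at 15.2 and 11.4 TPM of input RNA in the clones, against 3.77 TPM in the untreated sample (log2 change 1.57, SE 0.63, limma adjusted p = 0.433). These came from 47, 31 and 10 reads. The untreated ROR1 value was the lowest of the 8 samples, which ran up to 19.6 TPM. The sheIF4E2 table measured 9 of 26, with a median input change of 0.50 beside −0.10 for all genes. FGFR3 input RNA stood at 5.45 and 10.2 TPM in the sheIF4E2 samples, against 1.18 TPM in shscramble rep2, from 11, 21 and 2 reads, and PTK7, a catalytically inactive receptor, at 5.88 and 4.96 TPM, against 1.59 TPM in shscramble rep2. FGFR3 and PTK7 were thus higher in the same samples as FGFR4, from few reads.

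Among other ligands, 16 of 26 were measured in both tables with replicates. PDGFB, a ligand of the PDGF receptors, stood at 4.35 and 5.59 TPM of input RNA in the sgM16 clones, against 13.3 TPM in the untreated sample. PDGFB had 8, 9 and 21 reads there (log2 change −1.27, SE 0.43, limma adjusted p = 0.372). It stood at 38.5 and 44.0 TPM in the sheIF4E2 samples, against 12.2 TPM in shscramble rep2 (log2 change 1.68, SE 0.34, limma adjusted p = 0.381), the same directions as FGFR4. FGF2 stood at 32.7 and 26.7 TPM in the clones, against 12.7 TPM in the untreated sample, the lowest value of the 8 samples. HBEGF footprints stood at 11.9 and 10.7 TPM in the clones, against 4.50 TPM in the untreated sample, from 33, 12 and 6 reads. TGFA, another ligand of EGFR, had footprints from 10 and 1 reads in the clones, against 13 reads in the untreated sample. EFNA1 input RNA stood at 25.5 and 23.8 TPM in the sheIF4E2 samples, against 58.2 TPM in shscramble rep2 (log2 change −1.21, SE 0.31, limma adjusted p = 0.513).

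Among shedding enzymes and co-receptors, 10 of 11 were measured in every table. The metalloproteases ADAM10 and ADAM9, which release membrane-bound precursors, stood at 11.8 and 10.4 TPM and at 13.6 and 14.4 TPM of input RNA in the sgM16 clones, against 3.96 and 5.87 TPM in the untreated sample. Both untreated values were the lowest of the 8 samples, which ran up to 38.6 TPM for ADAM10 and 48.5 TPM for ADAM9. ADAM10 footprints stood at 11.5 and 15.4 TPM in the clones, on either side of the 12.8 TPM of the untreated sample. NRP1, a co-receptor for VEGF, stood at 43.7 and 41.8 TPM in the clones, against 18.5 TPM in the untreated sample (log2 change 1.17, SE 0.31, limma adjusted p = 0.299). Both clones lay below the 61.6 TPM of shscramble rep1 and the 45.0 TPM of shscramble rep2. NRP1 stood at 17.9 and 14.4 TPM in the sheIF4E2 samples, against 45.0 TPM in shscramble rep2 (log2 change −1.43, SE 0.38, limma adjusted p = 0.513), the same directions as MET.

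Of 30 adaptors and effectors, 25 were measured in the sgM16 table and 24 in the sheIF4E2 table, with medians in input of 0.07 and −0.05 beside 0.10 and −0.10 for all genes. PTPN11, the phosphatase that relays receptor signals, had 22.2 and 34.6 TPM of input RNA in the clones, against 13.7 TPM in the untreated sample. That untreated input value was the lowest of the 8 samples. PTPN11 footprints stood at 9.08 and 9.89 TPM in the clones, against 15.0 TPM in the untreated sample. The TE change was −1.58 (SE 0.54, limma adjusted p = 0.561). No adaptor or effector reached 1 log2 unit in both sheIF4E2 replicates in any measure. In shM16, 13 of 22 were at least 1 log2 unit lower in footprints than in shscramble rep1, beside 54.4% of all genes. GRB2, the adaptor that links receptors to SOS, stood at 9.85 TPM of footprints in shM16, against 37.1 TPM in shscramble rep1, with input at 46.1 TPM in shM16 and 50.8 TPM in shscramble rep1.

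Of 21 negative regulators, 18 were measured in the sgM16 table and 15 in the sheIF4E2 table. ERRFI1, an inhibitor that binds the EGFR kinase domain, stood at 25.3 and 30.8 TPM of input RNA in the sheIF4E2 samples, against 63.8 TPM in shscramble rep2, and SOCS3 at 15.8 and 23.1 TPM, against 48.2 TPM in shscramble rep2. The changes were −1.16 (SE 0.47, limma adjusted p = 0.662) and −1.29 (SE 0.51, limma adjusted p = 0.659). RASA1, a RAS GTPase-activating protein, stood at 13.7 and 11.4 TPM of input RNA in the sgM16 clones, against 3.39 TPM in the untreated sample. RASA1 had 33, 24 and 7 reads there (log2 change 1.62, SE 0.49, limma adjusted p = 0.344). RNF41, a ubiquitin ligase that acts on ERBB3, had footprints of 5.46 and 4.79 TPM in the sheIF4E2 samples, against 0.966 TPM in shscramble rep2, from 10, 11 and 2 reads.

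Over the 8 input libraries, and among 5124 genes listed in all of them at a mean of at least 10 TPM, the genes whose log2 levels ran most like EGFR were NCEH1 (r = 0.957), CKAP4 (r = 0.937) and P4HB (r = 0.936). Those most like EREG were NTN4 (r = 0.990), DKK1 (r = 0.982) and LTBR (r = 0.977). These r values are the top of a search over many genes and 8 samples from 3 tables, and they also carry any difference between tables.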

How the data were processed

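The data are TPM values for footprint and input libraries of 8 A549 samples in 3 deposited tables. Per the labels' protocols, RNase I digestion and a 30 nt size selection gave the footprints, and fragmentation in 10 mM ZnCl2 with a 40 to 60 nt selection gave the input. The submitters' processing notes name cutadapt 2.8, Bowtie 1.3.0, Bowtie2 2.2.5, STAR 2.7.5c, featureCounts 2.0.1 and GRCh38; what each was used for, the annotation and the strand setting are not given in the sources read. The authors deposited TPM, with rows only for genes of at least 1 TPM in the input. Listed genes held 44.6 to 49.8% of the input TPM and 16.1 to 35.1% of the footprint TPM. What held the rest is not given in the sources read.

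Whole reads were recovered from the TPM steps for 11892 of 11892 genes with 2 or more values (relative tolerance 1e-08). Log2(TPM + 1) was fitted with limma 3.58.1 (R 4.3.3) per table, on genes that averaged at least 1 TPM in each assay, with an intensity trend and group means. P-values are two-sided, adjusted by Benjamini-Hochberg over every gene in the fit, and called under 0.05. Changes on this scale understate those of low genes. The TE contrast was the footprint change minus the input change. P-values measure the spread between the 2 clones or replicates of a table. The table of shM16 has 1 sample per group and no test. Intervals are exact Clopper-Pearson intervals on the recovered reads; without molecular identifiers they cover counting error only. The fit was also run on simulated data with planted footprint changes and the same spread for every gene. That run checks the code only, since it does not hold the spread between clones or replicates.

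Genes were named by a rule: all 10 members, and from each pathway list up to 3 genes per comparison that differed by at least 1 log2 unit in every depleted sample; not every gene the rule names is printed. Fitted changes are printed only for members at 0.5 log2 units or more, and not for each of those. The members and lists were chosen with earlier results of these data known. Alternatives were pseudocount 0.1, no filter, a 10 TPM filter, median-of-ratios and quantile scaling, no trend, voom, a spread shared by all tables, both scramble samples as control, a replicate block and leaving out each sample.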

Additional observations from a re-analysis of the deposited data

Results flagged for a closer look

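METTL16 was depleted by a guide and by a hairpin, and for 9 measures both sgM16 clones lay on the other side of their control than shM16 did of its own. The log2 change of the clones minus that of the hairpin was 1.90 for MET input, 1.70 for EREG input, 0.65 for AXL input, −0.59 for ERBB2 input and −0.76 for EPHA2 input. It was 1.11 for EGFR footprints and 1.74 for AXL footprints. In TE it was 1.04 for FGFR4 and −0.84 for AREG. These are 5 of 9 members in input, 2 of 9 in footprints and 2 of 9 in TE, beside 40.7%, 17.5% and 22.5% of 7256 genes that lay on opposite sides in the same way, so nothing particular to the members is read from them. In one limma fit over all 3 tables, with 4 residual degrees of freedom, none of the 9 passed the threshold. The spread in that fit comes from the 2 sgM16 clones and the 2 sheIF4E2 samples, and shM16 is assumed to vary like them. Since the 9 were picked for lying on opposite sides, the adjusted p are a description only, and the lowest were 0.0548 for AXL footprints (SE 0.39), 0.143 for MET input (SE 0.44) and 0.196 for EGFR footprints (SE 0.52), with the direction shown by 2 of 2 clones and by 1 hairpin sample. Over all 7256 genes the same test called 7 in input, 73 in footprints and 0 in TE. The 2 comparisons have different controls, and the footprint levels of nearly all genes were lower in shM16; the part of either in these differences was not tested.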

How the results depend on the processing

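No member was called by limma in any of the 6 tested comparisons under pseudocount 0.1, no filter, a 10 TPM filter, either scaling, no trend or a spread shared by all tables, nor for sheIF4E2 with both scramble samples as control, and without either treated sample the number called was 0 to 0. Voom on the recovered reads called 5 members in the sheIF4E2 input and 1 in its footprints. In the table of shM16, past 1 log2 unit, both scramble samples as control gave 0 members in input, 3 in footprints and 1 in TE. Median-of-ratios and quantile scaling each gave 0 in footprints and 1 in TE, and FGFR4 footprints turned to 0.16 and 0.13; those scalings set the all-gene footprint median, −1.06 as deposited, near 0. With both scramble samples as control the IGF1R changes of sheIF4E2 turned to −0.028 in footprints and −0.055 in TE; the cause was not tested. The 10 TPM filter removed FGFR4 and ERBB2 from the sgM16 table and ERBB2 from the others. A replicate block that pairs the footprint and input libraries of a sample gave 0 members called in TE in both tables. The deviations of paired libraries correlated at r = 0.147 across genes in the sgM16 table and −0.0158 in the sheIF4E2 table. Depth limits the footprints of FGFR4 (7 to 54 reads), AREG (11 to 60) and ERBB2 (12 to 64).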

Other observations

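EREG and AREG are neighbours on chromosome 4, with 56387 bases from the end of EREG to the start of AREG (GRCh38.p14). In input RNA of sgM16 clones 1 and 2 the log2 differences from the untreated sample were 1.22 and 0.52 for EREG and −0.35 and −1.04 for AREG, so the neighbours lay on opposite sides of the control in both clones. In shM16 both were lower than in shscramble rep1, with log2 differences of −0.83 for EREG and −1.64 for AREG.

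AXL input RNA stood at 125 TPM in shM16 and 132 TPM in shscramble rep1, and at 303 to 615 TPM in the other 6 samples. AXL footprints likewise stood at 18.7 TPM in shM16 and 49.9 TPM in shscramble rep1, below the 78.7 to 229 TPM of the other 6 samples. The summed input level of the epithelial markers was also lowest in these samples, 785 TPM in shM16 and 817 TPM in shscramble rep1, and 1200.3 to 2458 TPM elsewhere. That sum is mostly keratin, with medians of 1100 TPM for KRT7, 268 TPM for KRT18 and 207 TPM for KRT8. CDH1, KRT19 and EPCAM had medians of 10.0, 8.22 and 2.96 TPM. All 6 markers were listed in shM16 and shscramble rep1, while sgM16 clone 2 listed 4. Whether a common difference of that table lies behind the lower AXL and the lower sum was not tested.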
